A study of Arabidopsis thaliana with 33 samples.

Results

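The genes described here encode the enzymes of the Calvin cycle and of photorespiration in Arabidopsis thaliana. They were chosen by locus from a list of 33, of which 32 were measured among 27826 loci on the arrays, 21 of the Calvin cycle and 11 of photorespiration. PGLP1 (AT5G36700), the phosphoglycolate phosphatase that opens photorespiration, was the one listed gene not analysed here. RNA of whole rosettes of 3 natural accessions was hybridised to whole-transcript arrays in 11 groups of 3 arrays each, and the question was how expression changes when irradiance rises. In the high light (HL) treatment the irradiance was raised to 550 μmol per square metre per second when the lights came on at day 25 after sowing, and in low light (LL) it stayed at the 100 μmol per square metre per second at which all plants had grown. Ga-0 and Ts-1 were sampled under both irradiances at 1 hr only, whereas Col-0 was sampled under both at 1, 3.5 and 25 hr, and in LL additionally at -23 hr. The samples at -23, 1 and 25 hr share the same clock time on 3 consecutive days, whereas 3.5 hr is later in the day. Each array held a pool of 3 rosettes, and the 3 pools of a group are its biological replicates (n = 3). In the study the higher irradiance also warmed the plants, so light and warmth cannot be told apart in HL.

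The Calvin cycle fixes carbon dioxide in the chloroplast stroma. Rubisco joins carbon dioxide to ribulose bisphosphate (RuBP), the product is reduced with ATP and NADPH to triose phosphate, and most of the triose phosphate is rearranged back to RuBP. Rubisco also accepts oxygen, and the phosphoglycolate that this makes is recovered by photorespiration, which runs through chloroplasts, peroxisomes and mitochondria. Several of the enzymes are switched on in the light through thioredoxin, and many of the nuclear genes are known to follow light, sugars and the circadian clock.

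The deposited values are the digits of linear signals without their decimal separator, so the power of 10 of each value had to be inferred. Each was placed where arrays and groups lie closest together. No change beyond 3.16-fold can then be seen between a group and the group it was placed next to. A larger change would appear smaller or reversed, also among all loci. As placed, the lowest and highest of the 33 arrays differed by 1.29-fold to 2.95-fold among the 32 genes (median 1.53-fold). Placing all arrays of a gene together gave the same values for all 32. That placing also sought the smallest spread, so it could not show a group misplaced by a power of 10. Levels of different genes, and the tissue by its marker levels, cannot be compared in such data. Values below are therefore signals of 1 gene relative to the geometric mean of its Col-0 LL arrays at 1 hr, which is set to 1, and differences are log2 fold-changes with their standard error (SE). A gene was called where its adjusted p was below 0.05 in a limma fit over all loci and arrays, with Benjamini-Hochberg adjustment over all loci of a comparison. In whole rosettes, fewer cells of a type and less RNA per cell cannot be told apart. Of 5 markers of the epidermis, 3 fell in HL at 3.5 hr (median log2 fold-change -0.25, range -0.71 to 0.00) and 3 at 25 hr (median -0.42, range -0.48 to -0.15), and none changed in Col-0 at 1 hr. In HL at 1 hr, 1 of the epidermis (median -0.12) and 1 of the vasculature (median -0.15) fell in Ga-0, and 1 of the vasculature fell in Ts-1 (median -0.21). Of 5 markers each, guard cells had 1 higher and 1 lower at 3.5 hr, and the vasculature had 2 higher at 3.5 hr and 1 lower at 25 hr. Their part in the results was not tested.

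Over the 11 groups most of these genes moved little. The highest and lowest group means of a gene differed by 1.09-fold (RBCS1A, a Rubisco small subunit) to 2.46-fold (RBCS2B, another small subunit), with a median of 1.34-fold against 1.31-fold over all loci. After RBCS2B came CP12-3 with 1.73-fold, the triose phosphate isomerase gene TPI and the aminotransferase gene GGT1 with 1.58-fold each, and the glycolate oxidase gene GOX1 with 1.52-fold. The smallest spans after RBCS1A were those of the aldolase gene FBA2 (1.12-fold), the regulatory gene CP12-1 (1.14-fold) and the transketolase gene TKL1 (1.14-fold). The SD of log2 values within groups had a median of 0.10 for these genes and 0.11 over all loci, and it was largest for TPI (0.21) and RBCS1B (0.18). For 19 of the 32 genes the highest group mean was Col-0 LL at -23 hr, which was the highest group for 7.24% of all loci. For 13 of the 32 the lowest group mean was Col-0 LL at 3.5 hr, the lowest group for 11.2% of all loci.

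In the light comparisons few of the genes were called, and those that were changed by less than 1.4-fold. At 1 hr none of the 32 passed in Ga-0, Ts-1 or Col-0, where 5.57%, 6.43% and 6.99% of all loci were called. At an unadjusted p below 0.05 the counts of these genes were 1, 0 and 2, against 16.0%, 17.1% and 17.5% of all loci. At 3.5 hr in Col-0, 4 of the 32 passed, against 21.6% of all loci. FBA1 and GLU1 were up-regulated (11.5% of all loci were), and CP12-3 and PRK were down-regulated (10.1%). At 25 hr 4 passed, against 17.0% of all loci, and all 4 (GGT1, RBCS3B, RCA and CP12-3) were down-regulated, as were 8.67% of all loci. No gene of the list was called and past 1.4-fold in any light comparison, against 2.23% of all loci for Ga-0, 2.41% for Ts-1 and 2.83%, 7.71% and 5.04% for Col-0 at 1, 3.5 and 25 hr. The 95% interval of the log2 fold-change lay within a 1.4-fold change either way for all 32 genes in Ga-0 and Col-0 at 1 hr, for 30 in Ts-1 at 1 hr, and for 27 at 3.5 hr and 30 at 25 hr in Col-0. Of all loci, 90.4% in Ga-0, 89% in Col-0 and 89.4% in Ts-1 had such an interval at 1 hr. In Col-0 80.2% had it at 3.5 hr and 83.5% at 25 hr. The light comparisons at different times and in different accessions rest on separate arrays.

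**Figure D1:**
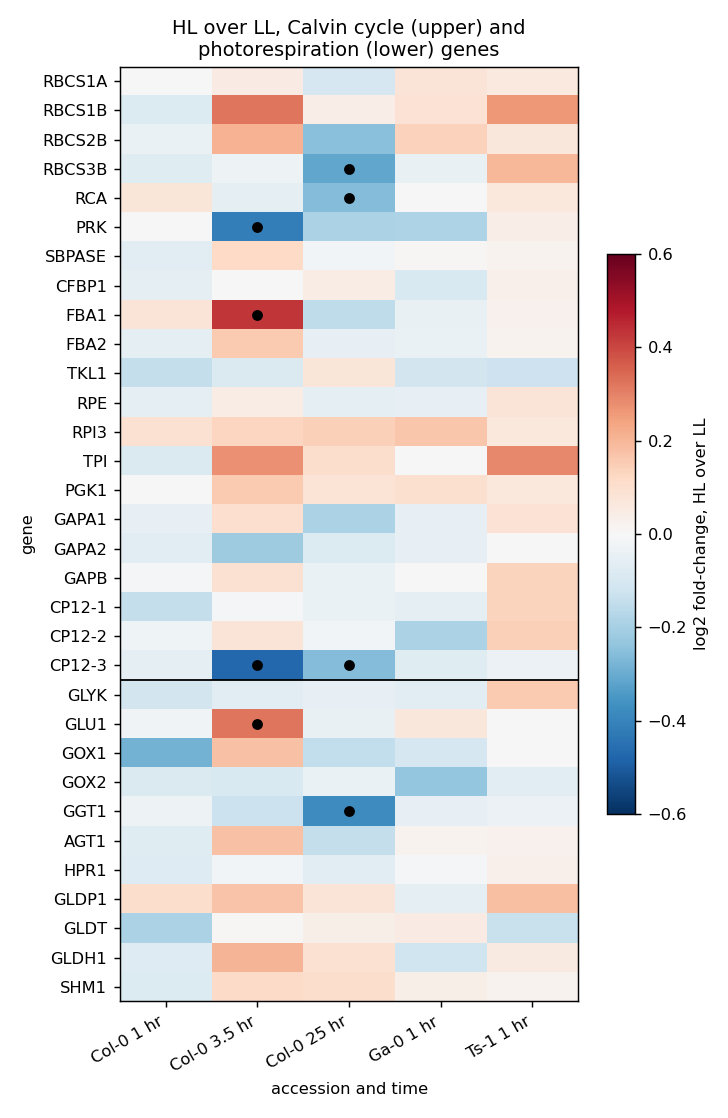
Log2 fold-change of HL over LL (colour scale) for the 32 measured genes (vertical axis, Calvin cycle genes above the line and photorespiration genes below it) in the 5 comparisons (horizontal axis), with a dot where the adjusted p is below 0.05. Of the 8 dots, 4 are at 3.5 hr and 4 at 25 hr in Col-0, and the columns at 1 hr have none.

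The direction of the small differences varied with time. In Col-0 at 1 hr, 27 of the 32 genes had a log2 fold-change below 0 (median -0.06, all loci -0.02), at 3.5 hr 11 did (median 0.08, all loci -0.01), and at 25 hr 22 did (median -0.05, all loci -0.01). In Ga-0 at 1 hr 20 lay below 0 (median -0.04, all loci 0.00), and in Ts-1 only 6 did (median 0.05, all loci 0.00). With each array centred on its median, 24, 10 and 22 lay below 0 at the 3 times of Col-0, 19 for Ga-0 and 5 for Ts-1. Without centring, 15766, 14582 and 15021 of the 27826 loci lay below 0 at the 3 times of Col-0, 14108 for Ga-0 and 14345 for Ts-1. Genes of a comparison share its arrays, so such counts are not independent. The HL arrays lay all above or all below the LL arrays for 5, 8 and 12 of the 32 genes at 1, 3.5 and 25 hr in Col-0, where 21.8%, 35.2% and 33.5% of all loci did so. In Ga-0 2 genes did (16.7% of all loci), and in Ts-1 3 did (19.0%). The light response at 1 hr was not found to differ between accessions for any of the 32 genes, and few loci showed such a difference (0.212% for Ga-0 minus Col-0, 0.633% for Ts-1 minus Col-0 and 0.309% for Ga-0 minus Ts-1). At an unadjusted p below 0.05 these counts were 1, 3 and 1, against 8.45%, 10.9% and 8.49% of all loci. Between times in Col-0 the light response differed for 4 of the 32 genes at 3.5 minus 1 hr (10.0% of all loci), for 3 at 25 minus 3.5 hr (9.73%) and for none at 25 minus 1 hr (5.04%, and 3 genes at an unadjusted p below 0.05 against 16.5% of all loci).

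More of these genes were called by time of day in LL than in any HL comparison. In Col-0 in LL, 9 of the 32 genes were called between 3.5 and 1 hr, against 21.0% of all loci, and 2 of them, GOX1 and CP12-3, were past 1.4-fold (7.41% of all loci). CP12-3 rose, as did 11.1% of all loci, and the other 8 called genes fell, as did 9.92%. All but CP12-3 and PRK, 30 of 32, had a log2 fold-change below 0, with a median of -0.16 against 0.00 over all loci, and median centring left that count at 30. For 20 of the 32 the arrays at 3.5 hr all lay below those at 1 hr, and 15.5% of all loci had that pattern. Every one of the 11 photorespiration genes was below 0. At the same clock time the days differed less. Between 25 and 1 hr in LL none of the 32 genes was called (0.0539% of all loci were), and 1 had an unadjusted p below 0.05 (7.56% of all loci). Between -23 and 1 hr none was called either (0.37% of all loci were), and 1 had an unadjusted p below 0.05 (7.43% of all loci), although 29 of the 32 lay above 0 with a median of 0.09. For 7 of those the arrays at -23 hr all lay above those at 1 hr (6.66% of all loci). These 3 comparisons share the LL arrays at 1 hr, and the LL arrays at 3.5 hr also enter the HL comparison of that time. Of the markers in LL at 3.5 over 1 hr, 2 of the epidermis fell (median -0.14), 1 of the vasculature fell (median -0.20), and for guard cells 1 was higher and 1 lower (median 0.00), and their part was not tested.

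**Figure D2:**
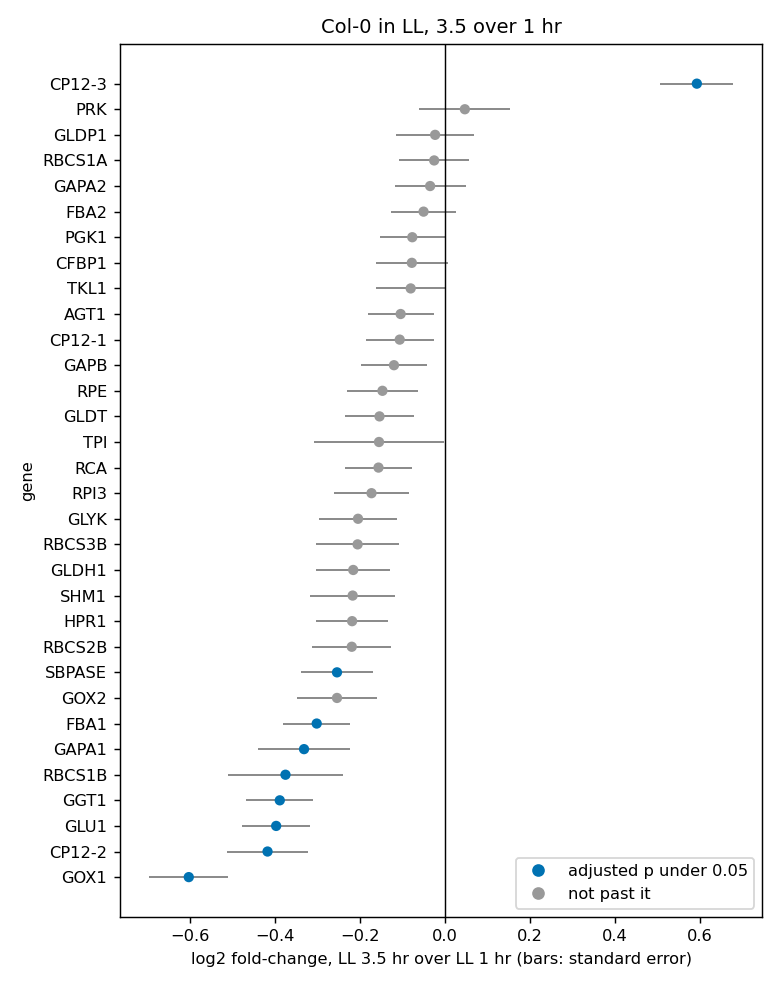
Log2 fold-change of LL at 3.5 hr over LL at 1 hr in Col-0 (horizontal axis, points with SE) for the 32 genes (vertical axis), blue where the adjusted p is below 0.05. All genes but CP12-3 and PRK lie left of 0, and the values run from -0.60 for GOX1 to 0.59 for CP12-3.

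Accessions were compared in LL at 1 hr. Ga-0 differed from Col-0 in 7 of the 32 genes (17.7% of all loci), of which TPI and FBA1 were higher (9.64% of all loci) and RBCS2B, SHM1, GLDT, RPE and GLU1 lower in Ga-0 (8.05%). RBCS2B, SHM1 and TPI were past 1.4-fold (6.45% of all loci). Ts-1 differed from Col-0 in 5 genes (21.6% of all loci), all lower in Ts-1 (9.34% of all loci were), namely RBCS2B, CFBP1, GLDT, GLYK and AGT1, with RBCS2B past 1.4-fold (7.47% of all loci). Of the 32 genes, 27 lay below 0 in Ts-1 over Col-0, among them all 11 of photorespiration, with a median of -0.13 against 0.03 over all loci, and after median centring 29 did. In Ga-0 over Col-0 the median was -0.05 against 0.03. Both comparisons use the same Col-0 arrays. Ga-0 and Ts-1 differed from each other in 7 genes (14.9% of all loci), with TPI, CFBP1, PRK, RBCS3B and AGT1 higher (7.32%) and SHM1 and CP12-3 lower in Ga-0 (7.53%), and TPI past 1.4-fold (5.44% of all loci). Whether the probes, which follow the Col-0 genome, match the other accessions equally was not tested. Of the markers, 1 of the epidermis was higher and 1 each of guard cells and vasculature lower in Ga-0 than in Col-0, none differed between Ts-1 and Col-0, and 1 of the epidermis was higher in Ga-0 than in Ts-1 (median 0.22). Their part was not tested either.

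Among the Rubisco genes, the small subunit gene RBCS2B (AT5G38420) set Ga-0 and Ts-1 apart from Col-0. RBCS2B signal was 0.427, 0.481 and 0.464 in Ga-0 in LL and 0.434, 0.424 and 0.477 in Ts-1 in LL, against 1.05, 0.976 and 0.975 in Col-0 in LL at 1 hr. No array of Ga-0 or Ts-1 came near those of Col-0. The log2 fold-change was -1.13 ± 0.093 (SE, adjusted p = 7.53e-11) for Ga-0 over Col-0 and -1.17 ± 0.093 (SE, adjusted p = 2.99e-11) for Ts-1 over Col-0, or 0.457-fold and 0.444-fold. Ga-0 and Ts-1 did not differ detectably from each other (log2 fold-change 0.04 ± 0.093, SE). The same separation held in HL at 1 hr, with 0.493, 0.490 and 0.527 in Ga-0 and 0.482, 0.506 and 0.413 in Ts-1, against 0.993, 0.950 and 0.979 in Col-0. The direction rests on the placing by the smallest change, since the same digits would also be met by a 4.57-fold higher signal in Ga-0 and a 4.44-fold higher signal in Ts-1. Whether the RBCS2B probes match Ga-0 and Ts-1 as well as Col-0 was not tested.

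The other small subunit genes did not share this pattern. RBCS1A (AT1G67090) was 0.974, 0.965 and 1.08 in Ga-0 in LL and 1.08, 0.914 and 1.06 in Ts-1 in LL, against 0.990, 1.00 and 1.01 in Col-0 in LL at 1 hr. RBCS1B (AT5G38430) was 0.681, 0.940 and 0.947 in Ga-0 and 0.970, 0.841 and 0.748 in Ts-1, against 0.944, 1.01 and 1.05 in Col-0. Its arrays overlapped, and neither log2 fold-change passed (-0.24 each, SE 0.136, adjusted p = 0.255 and 0.241). RBCS3B (AT5G38410) was 0.932, 1.2 and 1.07 in Ga-0, against 0.784, 0.823 and 1.00 in Ts-1, and was called between these accessions (log2 fold-change 0.30 ± 0.097, SE, adjusted p = 0.0347) although the arrays overlapped. That call was lost without replicate 2 or 3 of Ga-0 or replicate 1 or 2 of Ts-1 (adjusted p up to 0.223). RBCS1B and RBCS2B are neighbours on chromosome 5, which also holds RBCS3B, and the proteins of the family are nearly alike, so how far their probes were separate is uncertain.

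**Figure D3:**
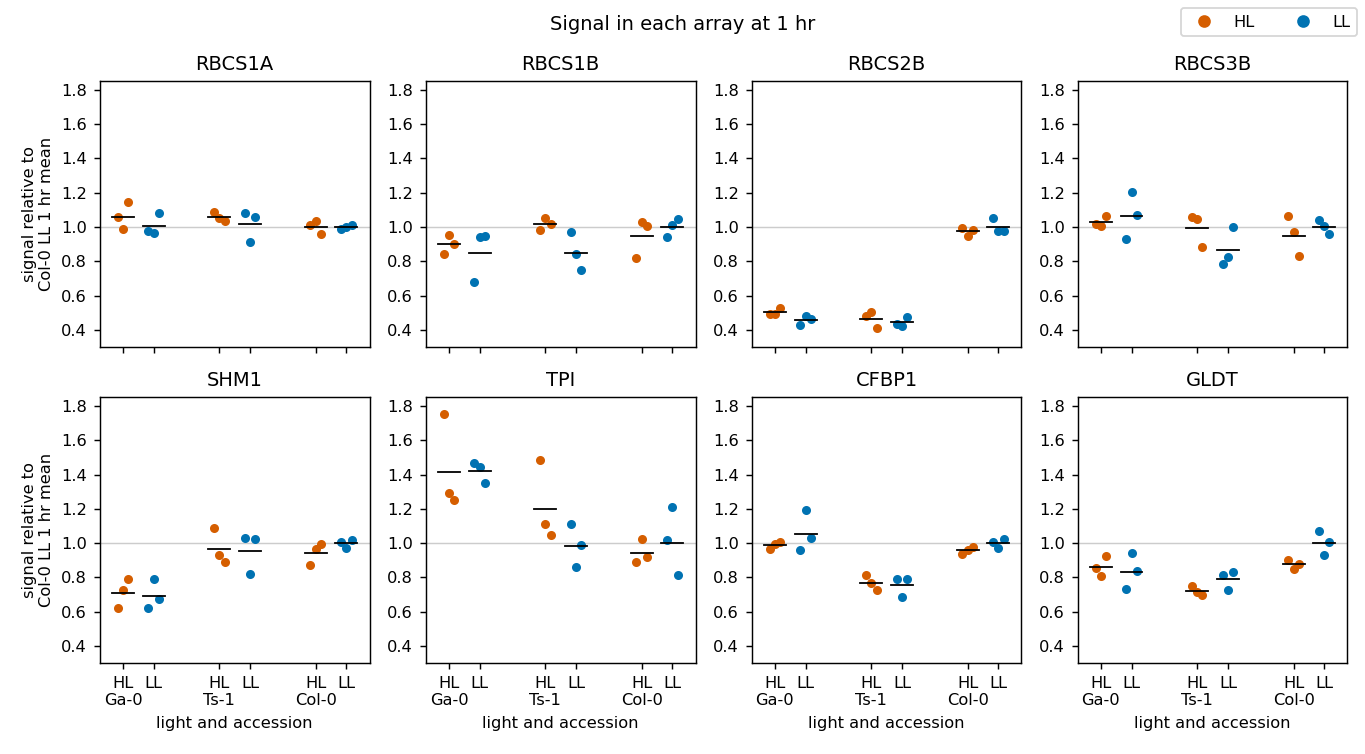
Signal relative to Col-0 LL at 1 hr (vertical axis) in Ga-0, Ts-1 and Col-0 in HL and LL at 1 hr (horizontal axis), for 8 genes, with points for arrays and bars for group means. RBCS2B lies between 0.413 and 0.527 in all 12 arrays of Ga-0 and Ts-1 and between 0.950 and 1.05 in Col-0, while RBCS1A overlaps in all accessions.

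In HL 2 Rubisco genes were called, both at 25 hr. RBCS3B was 0.883, 0.713 and 0.790 in HL, against 1.04, 0.981 and 0.930 in LL, at 25 hr in Col-0, and every HL array was lower. This was a log2 fold-change of -0.31 ± 0.097 (SE, adjusted p = 0.0226), and the call was lost without HL replicate 2 or 3 or LL replicate 1 or 2 of 25 hr (adjusted p up to 0.156). RCA (AT2G39730), which encodes the Rubisco activase that frees the enzyme of bound sugar phosphates, was 0.886, 0.869 and 0.933 in HL, against 1.09, 1.07 and 1.06 in LL, at 25 hr. Here too the groups did not overlap. The log2 fold-change of RCA was -0.26 ± 0.079 (SE, adjusted p = 0.0193), lost without HL replicate 1 or 2 or LL replicate 1 of 25 hr (adjusted p up to 0.0768). RBCS2B at 25 hr (log2 fold-change -0.25, adjusted p = 0.0656) and RBCS1B at 3.5 hr (0.32, adjusted p = 0.0964) did not pass. The light response of RBCS2B did differ between the times, with a 25 minus 3.5 hr difference of -0.46 (adjusted p = 0.022). RBCS2B was 1.04, 1.07 and 0.880 in HL, against 0.855, 0.898 and 0.826 in LL, at 3.5 hr, and 1.09, 0.868 and 0.820 in HL, against 1.22, 1.05 and 1.01 in LL, at 25 hr. The groups overlapped at both times. This call on RBCS2B was lost without any of 6 arrays, namely replicates 1 and 2 of HL and replicate 3 of LL at 3.5 hr, and replicates 2 and 3 of HL and replicate 1 of LL at 25 hr (adjusted p up to 0.0851).

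By time of day in LL, RBCS1B was 0.804, 0.849 and 0.672 at 3.5 hr, against 0.944, 1.01 and 1.05 at 1 hr. This was a log2 fold-change of -0.37 ± 0.136 (SE, adjusted p = 0.0465), lost without any single array of the comparison but replicate 2 of 3.5 hr (adjusted p up to 0.232). The corresponding values were -0.03 for RBCS1A, -0.22 for RBCS2B, -0.21 for RBCS3B and -0.16 for RCA, none of which passed.

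None of the reduction genes was called in HL. PGK1 (AT3G12780) (phosphoglycerate kinase) and GAPA1 (AT3G26650), GAPA2 (AT1G12900) and GAPB (AT1G42970), whose products form the chloroplast glyceraldehyde phosphate dehydrogenase, were not called in any light or accession comparison. GAPA2 came closest, with 0.837, 0.901 and 0.789 in HL, against 0.956, 0.998 and 0.975 in LL, at 3.5 hr. Its HL arrays all lay lower, but the log2 fold-change of -0.22 did not pass (adjusted p = 0.066). By time of day in LL, GAPA1 passed and GAPA2 did not. GAPA1 was 0.788, 0.902 and 0.707 in LL at 3.5 hr, against 1.02, 0.994 and 0.990 in LL at 1 hr, a log2 fold-change of -0.33 ± 0.108 (SE, adjusted p = 0.0253) that was lost without any single array but replicate 2 of 3.5 hr (adjusted p up to 0.163). The GAPA2 log2 fold-change in that comparison was -0.03 (adjusted p = 0.848). The difference between the paralogs was not tested.

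Among the genes of RuBP regeneration, the chloroplast aldolase gene FBA1 (AT2G21330) had the lowest adjusted p in HL. FBA1 signal was 1.13, 1.11 and 1.04 in HL, against 0.809, 0.905 and 0.730 in LL, at 3.5 hr in Col-0. All HL arrays were higher, and they lay close to the LL arrays of 1 hr (1.05, 0.944 and 1.01). The log2 fold-change was 0.43 ± 0.079 (SE, adjusted p = 0.000103) and was called under every alternative except a test against a 1.4-fold change. At 1 hr FBA1 was 1.08, 0.995 and 1.09 in HL, and the groups overlapped. At 25 hr it was 0.871, 0.871 and 0.883 in HL, against 0.958, 0.988 and 0.972 in LL, so that all HL arrays were lower, although the log2 fold-change of -0.15 did not pass (adjusted p = 0.216). The FBA1 light response at 25 hr differed from that at 3.5 hr by -0.58 (adjusted p = 0.000654). It differed between 3.5 and 1 hr by 0.35 (adjusted p = 0.0392), a call lost without any of 7 of the 12 arrays, namely HL replicate 2 and LL replicates 1 and 3 of 1 hr, and HL replicates 1 and 2 and LL replicates 1 and 3 of 3.5 hr (adjusted p up to 0.136).

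In LL FBA1 was lower at 3.5 than at 1 hr (log2 fold-change -0.30 ± 0.079, SE, adjusted p = 0.00488), a call lost without replicate 3 of 3.5 hr (-0.22, adjusted p = 0.0612). FBA1 was also higher in Ga-0, with 1.21, 1.16 and 1.25, than in Col-0 in LL (log2 fold-change 0.27, adjusted p = 0.0132). This was lost without Col-0 replicate 2 or Ga-0 replicate 3 (adjusted p up to 0.0749). The second aldolase gene FBA2 (AT4G38970) was 1.06, 1.13 and 1.05 in HL, against 0.912, 0.979 and 1.01 in LL, at 3.5 hr. Its HL arrays also lay all higher, but the log2 fold-change of 0.16 did not pass (adjusted p = 0.155), nor did that of -0.05 by time of day (adjusted p = 0.736).

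PRK (AT1G32060), which encodes the phosphoribulokinase that makes RuBP, went the other way in HL. PRK was 0.843, 0.770 and 0.718 in HL, against 0.958, 1.19 and 0.968 in LL, at 3.5 hr, with all HL arrays lower. The log2 fold-change was -0.41 ± 0.107 (SE, adjusted p = 0.00423), and without LL replicate 2, the highest of these arrays, it was -0.31 and no longer passed (adjusted p = 0.0549). The light response of PRK was not called different between 3.5 and 1 hr (-0.42, adjusted p = 0.0823). Ga-0 had 1.05, 1.25 and 1.04, against 0.882, 0.804 and 0.842 in Ts-1, in LL (log2 fold-change 0.40, adjusted p = 0.00855), which was lost without Ga-0 replicate 2 (adjusted p = 0.0764).

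None of the other regeneration genes was called in HL, and 3 of them differed by accession. CFBP1 (AT3G54050), the chloroplast fructose bisphosphatase gene, was 0.790, 0.688 and 0.794 in Ts-1 in LL, against 1.01, 0.971 and 1.02 in Col-0 in LL at 1 hr. Its log2 fold-change was -0.40 ± 0.084 (SE, adjusted p = 0.00049), and the HL arrays of Ts-1 lay as low (0.817, 0.766 and 0.729). Ga-0 had 0.959, 1.19 and 1.03, so that Ga-0 was higher than Ts-1 as well (log2 fold-change 0.48, adjusted p = 6.96e-05). TPI (AT2G21170), which encodes triose phosphate isomerase, was 1.46, 1.44 and 1.35 in Ga-0, against 1.02, 1.21 and 0.813 in Col-0. The log2 fold-change was 0.50 ± 0.152 (SE, adjusted p = 0.0181), lost without Col-0 replicate 3 or Ga-0 replicate 1 (adjusted p up to 0.156). Against Ts-1, with 1.11, 0.861 and 0.991, the log2 fold-change for Ga-0 was 0.53 (adjusted p = 0.0148), lost without Ga-0 replicate 1 or Ts-1 replicate 2 (adjusted p up to 0.0981). RPE (AT5G61410), the ribulose phosphate epimerase gene, was lower in Ga-0 than in Col-0 (log2 fold-change -0.25, adjusted p = 0.0312), lost without replicates 1 or 3 of either accession (adjusted p up to 0.153). SBPASE (AT3G55800), which encodes sedoheptulose bisphosphatase, was lower in LL at 3.5 hr than at 1 hr (log2 fold-change -0.25, adjusted p = 0.0313), lost without replicates 1 or 3 of either time (adjusted p up to 0.147). TKL1 (AT3G60750) and the ribose phosphate isomerase gene RPI3 (AT3G04790) were called in no comparison.

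The CP12 genes encode small proteins that in the dark bind glyceraldehyde phosphate dehydrogenase and phosphoribulokinase and hold them inactive. CP12-3 (AT1G76560) was the one member called higher by time of day in LL. In LL CP12-3 was 1.66, 1.38 and 1.5 at 3.5 hr, against 0.905, 0.977 and 1.13 at 1 hr, with no overlap. It gave a log2 fold-change of 0.59 ± 0.086 (SE, adjusted p = 3.06e-06), or 1.51-fold. In HL the signal at 3.5 hr was 1.03, 1.13 and 1.1, lower than in LL in every array, with a log2 fold-change of -0.47 ± 0.086 (SE, adjusted p = 8.49e-05). At 1 hr the HL arrays, with 1.00, 0.963 and 0.925, overlapped the LL arrays (log2 fold-change -0.05, adjusted p = 0.836). The difference in light response between 3.5 and 1 hr was -0.42 (adjusted p = 0.0226), lost without replicate 1 of any of the 4 groups or LL replicate 2 of 1 hr (adjusted p up to 0.0864). At 25 hr CP12-3 was 0.988, 0.849 and 0.958 in HL, against 1.26, 1.00 and 1.09 in LL. These arrays did not overlap either, and the log2 fold-change was -0.26 ± 0.086 (SE, adjusted p = 0.0325). That call was lost without HL replicate 2 or LL replicate 1 or 3 of 25 hr (adjusted p up to 0.257). CP12-3 was also lower in Ga-0 (0.904, 0.957 and 0.890) than in Ts-1 (1.14, 1.16 and 1.13) in LL, with a log2 fold-change of -0.32 (adjusted p = 0.00863).

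The other CP12 genes did not follow CP12-3. CP12-2 (AT3G62410) was 0.681, 0.859 and 0.718 in LL at 3.5 hr, against 0.962, 0.982 and 1.06 at 1 hr, opposite to CP12-3 (log2 fold-change -0.42 ± 0.095, SE, adjusted p = 0.00128). In HL at 3.5 hr it was 0.824, 0.816 and 0.731, within the spread of the LL arrays. CP12-1 (AT2G47400) was called in no comparison. At 1 hr it was 0.977, 1.02 and 1.01 in HL, against 0.949, 0.884 and 0.904 in LL, in Ts-1, and 0.838, 0.943 and 0.935 in HL, against 0.985, 1.00 and 1.01 in LL, in Col-0. The HL arrays thus lay on opposite sides of the LL arrays in the 2 accessions, but the difference in light response of 0.28 did not pass (adjusted p = 0.326).

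**Figure D4:**
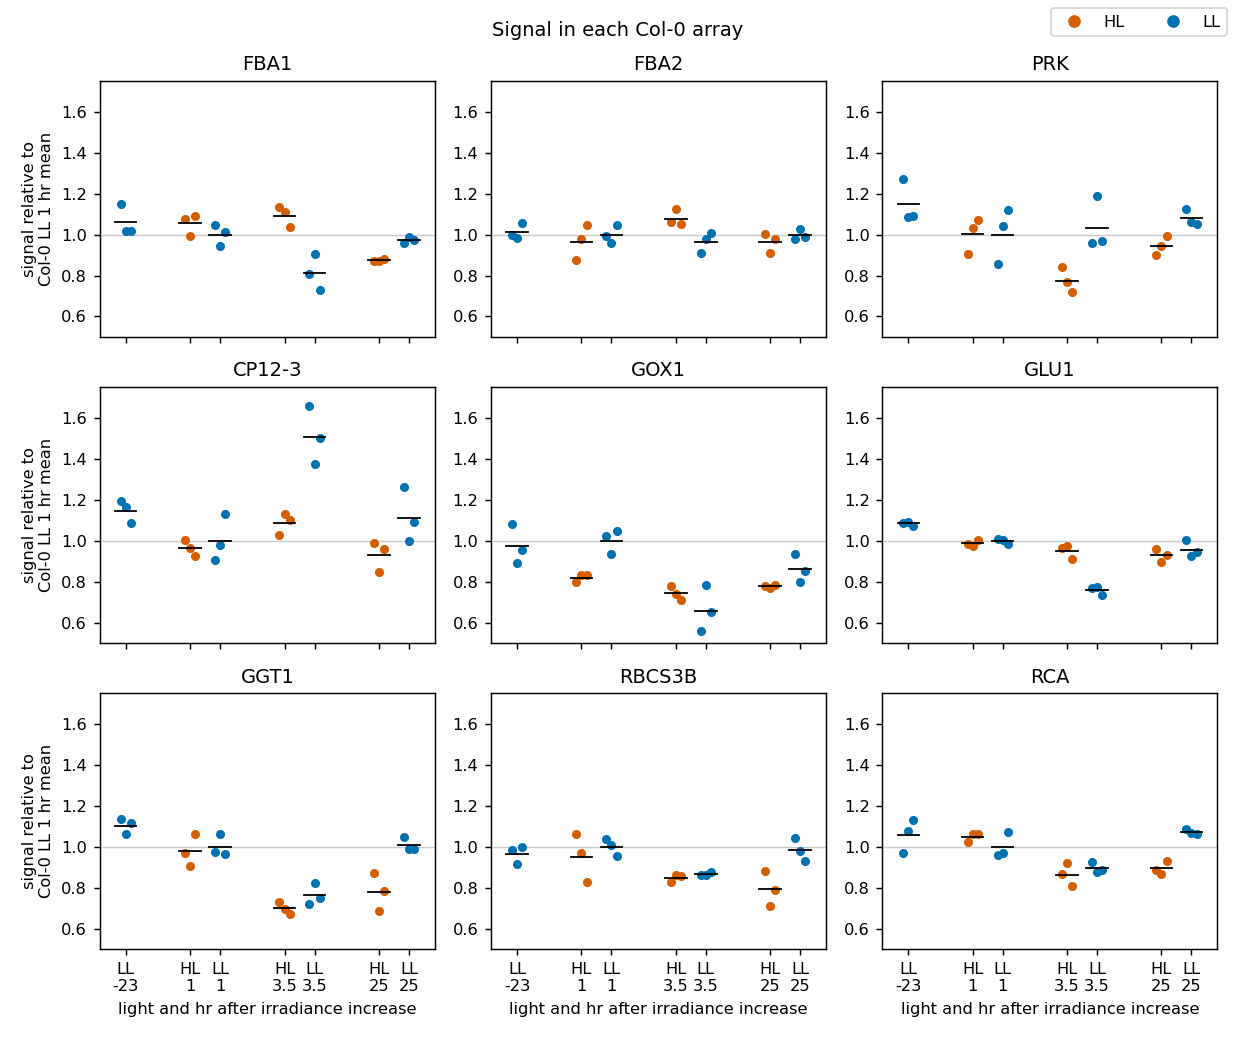
Signal relative to Col-0 LL at 1 hr (vertical axis) in Col-0 against sampling time (horizontal axis, -23 to 25 hr) for 9 genes, with points for arrays and bars for group means, HL in orange and LL in blue. FBA1 and GLU1 in HL stand above LL at 3.5 hr, whereas CP12-3 and PRK stand below it, and GGT1, RBCS3B and RCA in HL stand below LL at 25 hr.

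In the plastid part of photorespiration, GLU1 (AT5G04140) encodes the ferredoxin-dependent glutamate synthase. This enzyme takes part in recovering the ammonia set free by glycine decarboxylation. GLU1 was 0.964, 0.976 and 0.912 in HL, against 0.771, 0.772 and 0.736 in LL, at 3.5 hr. All HL arrays were higher, with a log2 fold-change of 0.32 ± 0.079 (SE, adjusted p = 0.00261). In LL GLU1 was lower at 3.5 hr than at 1 hr, where it was 1.01, 1.01 and 0.986 (log2 fold-change -0.40 ± 0.079, SE, adjusted p = 0.000298). At 25 hr the HL arrays, with 0.960, 0.898 and 0.930, overlapped the LL arrays, with 1.00, 0.925 and 0.944. The light response of GLU1 differed by 0.34 between 3.5 and 1 hr (adjusted p = 0.0479), which was lost without any 1 of the 12 arrays (adjusted p up to 0.107). It differed by -0.37 between 25 and 3.5 hr (adjusted p = 0.0333), lost without replicates 1 or 2 of HL or 3 of LL at 3.5 hr, or replicates 2 or 3 of HL or 1 or 3 of LL at 25 hr (adjusted p up to 0.0897). GLU1 was lower in Ga-0 than in Col-0 (log2 fold-change -0.24, adjusted p = 0.0353), lost without any Col-0 replicate or Ga-0 replicate 3 (adjusted p up to 0.249). GLYK (AT1G80380), the glycerate kinase gene at the end of the pathway, was lower in Ts-1 than in Col-0. Its log2 fold-change of -0.27 (adjusted p = 0.0346) did not pass without Col-0 replicate 1 or 2 or Ts-1 replicate 2 (adjusted p up to 0.274).

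Of the peroxisomal genes, GOX1 (AT3G14420), which encodes a glycolate oxidase, fell most by time of day. GOX1 was 0.561, 0.784 and 0.650 in LL at 3.5 hr, against 1.02, 0.935 and 1.05 at 1 hr. The groups did not overlap, and the log2 fold-change was -0.60 ± 0.093 (SE, adjusted p = 8.76e-06), or 0.659-fold. In HL GOX1 was 0.799, 0.831 and 0.831 at 1 hr, 0.780, 0.742 and 0.713 at 3.5 hr and 0.779, 0.772 and 0.781 at 25 hr. At 1 hr all HL arrays lay below the LL arrays, yet the log2 fold-change of -0.29 ± 0.093 (SE) did not pass (adjusted p = 0.0601). At 3.5 hr the groups overlapped (log2 fold-change 0.18, adjusted p = 0.209), and at 25 hr, with 0.936, 0.798 and 0.853 in LL, the HL arrays again lay lower without passing (-0.15, adjusted p = 0.342). The light response at 3.5 hr differed from that at 1 hr by 0.46 (adjusted p = 0.0206), which was lost without LL replicate 3 of 1 hr or HL or LL replicate 1 of 3.5 hr (adjusted p up to 0.0929). GOX2 (AT3G14415), the neighbouring gene on chromosome 3 with a nearly identical protein, was 0.797, 0.867 and 0.854 in LL at 3.5 hr, against 0.957, 1.07 and 0.973 at 1 hr (log2 fold-change -0.25, adjusted p = 0.0561). How far probes tell GOX1 and GOX2 apart is uncertain.

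GGT1 (AT1G23310), a glutamate to glyoxylate aminotransferase gene that supplies glycine, was the member with the lowest p at 25 hr in HL. GGT1 was 0.873, 0.686 and 0.786 in HL, against 1.05, 0.991 and 0.991 in LL, with no overlap. Its log2 fold-change was -0.38 ± 0.078 (SE, adjusted p = 0.000725), and it was called with each array left out. At 3.5 hr GGT1 was low in both HL (0.731, 0.695 and 0.673) and LL (0.722, 0.823 and 0.750), and in LL it was lower than at 1 hr (log2 fold-change -0.39 ± 0.078, SE, adjusted p = 0.000342). AGT1 (AT2G13360), the serine to glyoxylate aminotransferase gene, was 1.09, 1.08 and 0.980 in HL, against 0.913, 0.979 and 0.901 in LL, at 3.5 hr. At 25 hr it was 0.939, 0.857 and 0.892 in HL, against 1.01, 1.01 and 0.941 in LL. The HL arrays lay on opposite sides at these times, but neither light response passed, nor did their 25 minus 3.5 hr difference (-0.32, adjusted p = 0.0635). AGT1 was lower in Ts-1 than in Col-0 (log2 fold-change -0.24, adjusted p = 0.0248), although the arrays overlapped. This was lost without Col-0 replicate 1 or 3 or Ts-1 replicate 2 (adjusted p up to 0.277). AGT1 was higher in Ga-0 than in Ts-1 (log2 fold-change 0.23, adjusted p = 0.0382), lost without Ga-0 replicate 2 or 3 or Ts-1 replicate 2 (adjusted p up to 0.357). HPR1 (AT1G68010), the hydroxypyruvate reductase gene, was called nowhere. All 5 peroxisomal genes had a log2 fold-change below 0 in HL at 25 hr, as did 15021 of the 27826 loci, and GGT1 was the one called. All 5 were also below 0 at 1 hr in Col-0 (15766 of the loci were), with none called.

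The mitochondrial genes encode glycine decarboxylase subunits (GLDP1 (AT4G33010), GLDT (AT1G11860) and GLDH1 (AT2G35370)) and the serine hydroxymethyltransferase that works with them (SHM1 (AT4G37930)). All 4 had a log2 fold-change above 0 in HL at 3.5 and 25 hr, as did 13244 and 12805 of the 27826 loci, and none of the 4 was called at either time. SHM1 was 0.623, 0.790 and 0.673 in Ga-0 in LL, against 1.01, 0.975 and 1.02 in Col-0 in LL at 1 hr. All Ga-0 arrays were lower, with a log2 fold-change of -0.53 ± 0.10 (SE, adjusted p = 0.000186), or 0.692-fold, and the HL arrays of Ga-0 were in the same range (0.624, 0.726 and 0.790). Ts-1 had 1.03, 0.819 and 1.02, above every Ga-0 array, and the log2 fold-change of Ga-0 over Ts-1 was -0.46 (adjusted p = 0.00117). GLDT, the aminomethyltransferase subunit, was 0.815, 0.726 and 0.834 in Ts-1, against 1.07, 0.929 and 1.01 in Col-0 (log2 fold-change -0.34 ± 0.081, SE, adjusted p = 0.00226). In Ga-0 GLDT was 0.732, 0.941 and 0.837, overlapping Col-0 (log2 fold-change -0.26, adjusted p = 0.0202), and that call was lost without Col-0 replicate 1 or 3 or Ga-0 replicate 1 (adjusted p up to 0.199). GLDP1 and GLDH1 were called in no comparison.

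A further 36 genes of both pathways, their isoforms, transporters and Rubisco assembly factors were listed, and 34 were measured. At 3.5 hr 9 of these were called higher in HL than in LL (11.5% of all loci) and 4 lower (10.1%). At 25 hr 5 were higher (8.29%) and 1 lower (8.67%). At 1 hr 1 was higher in Ga-0 (2.71%), 3 in Ts-1 (3.51%) and 1 in Col-0 (3.71%), while none was lower. At 3.5 hr 5 of the 34 were called and past 1.4-fold (7.71% of all loci), whereas none of the 32 main genes was. RBCX1, a Rubisco assembly chaperone gene, was 0.691, 0.716 and 0.664 in HL, against 1.19, 1.43 and 1.08 in LL (log2 fold-change -0.83, adjusted p = 5.09e-07). RPI2, a ribose phosphate isomerase isoform, was 0.729, 0.794 and 0.742 in HL, against 0.436, 0.422 and 0.471 in LL (log2 fold-change 0.77, adjusted p = 2.05e-09). In both genes the arrays were clearly apart. CAT2, a catalase gene whose product removes the hydrogen peroxide made by glycolate oxidase, was 0.960, 0.960 and 0.893 in HL, against 0.612, 0.641 and 0.625 in LL (log2 fold-change 0.58, adjusted p = 8.48e-08). HAOX2, a hydroxyacid oxidase gene related to the GOX genes, was 0.692, 0.703 and 0.718 in HL, against 1.23, 1.17 and 1.13 in LL (log2 fold-change -0.74, adjusted p = 9.8e-05). CFBP2, a second chloroplast fructose bisphosphatase gene, was lower in HL as well (log2 fold-change -0.57, adjusted p = 2.12e-06), where CFBP1 gave 0.00. Between 1 and 3.5 hr the LL signal itself fell for RPI2 (log2 fold-change -1.175, adjusted p = 2.14e-13) and CAT2 (-0.68, adjusted p = 4.48e-09). It rose for CFBP2 (0.45, adjusted p = 7.4e-05), while RBCX1 (0.29, adjusted p = 0.051) and HAOX2 (0.23, adjusted p = 0.257) did not pass. The RPI2 HL arrays at 3.5 hr lay below its LL arrays at 1 hr (1.01, 0.928 and 1.07).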

How the data were processed

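Total RNA of complete rosettes was labelled and hybridised to AraGene arrays, and the authors summarised the probes per locus with RMA (background correction, quantile normalization, probe summary). The deposited values are linear RMA signals, of an unstated genome build, given as digits (up to 10) without a decimal separator, and of 918258 values 1 keeps its separator. The digits were read as mantissas. Powers of 10 were set so that arrays of a group lay closest together, LL groups closest to Col-0 LL at 1 hr, and HL groups closest to LL of the same accession and time. The log2 signals of all 33 arrays entered a single linear model in R 4.3.3 with limma 3.58.1 (lmFit and eBayes, trend off), in which each group had its own mean (22 residual degrees of freedom, 8.37 prior). Benjamini-Hochberg adjustment covered the 27826 loci of a contrast. Tables and figures were made in Python 3.11.15, and the placing and fit were tested on simulated data. Arrays give no read depth, so their number limits the precision. The array medians of row-centred log2 values ran from -0.04 to 0.04.

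Members and gene lists were chosen with earlier results of these data known. All measured members may be named; values per array are given for the 3 largest called rises and falls of each comparison of HL with LL, accessions in LL and times in LL, for paralogs, and for up to 6 other pathway genes past 1.4-fold. RefSeq's TAIR10.1 gene table, which holds 27241 of the loci, was used for neighbouring genes. Alternatives were the replicate number as a block, median centring, a robust fit, the compared groups only, p adjusted over all contrasts, limma's treat against 1.4-fold, another placing, and each replicate left out.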

Additional observations from a re-analysis of the deposited data

Results flagged for a closer look

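In Col-0 the light response of 5 genes differed between times in limma's interaction contrasts, with p adjusted over all loci. Between 3.5 and 1 hr, where 10.0% of all loci were called, the differences in log2 fold-change were 0.3522 for FBA1 (adjusted p = 0.0392), -0.418 for CP12-3 (0.0226), 0.342 for GLU1 (0.0479) and 0.4616 for GOX1 (0.0206). Between 25 and 3.5 hr, where 9.73% of all loci were called, they were -0.4599 for RBCS2B (0.022), -0.5805 for FBA1 (0.000654) and -0.3657 for GLU1 (0.0333). All of these use the arrays of 3.5 hr. Between 25 and 1 hr no member was called (5.04% of all loci), and 3 had an unadjusted p below 0.05 (16.5% of all loci).

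In 3 cases the HL arrays all lay above the LL arrays in one comparison and all below in another. How many of all loci did so was not counted. HL and LL arrays did not overlap for 35.2% of all loci at 3.5 hr and 33.5% at 25 hr in Col-0. At 1 hr this held for 21.8% in Col-0 and 19.0% in Ts-1. For FBA1 at 3.5 against 25 hr the difference was 0.5805 (adjusted p = 0.000654). For CP12-1 in Ts-1 against Col-0 at 1 hr it was 0.2797 (adjusted p = 0.326), and for AGT1 at 3.5 against 25 hr it was 0.317 (adjusted p = 0.0635), and neither passed. With 3 arrays a group, single arrays were not tested as outliers.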

How the results depend on the processing

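No result changed direction under median centring, the robust fit or a left-out array. The replicate block, p adjusted over all contrasts, treat and the fit of the compared groups leave a log2 fold-change as it is, so they do not test direction. The other placing gave the same values for all 32 genes and does not test it either. At the next power of 10, RBCS2B is 4.57-fold higher in Ga-0 and 4.44-fold higher in Ts-1 than in Col-0. Of 43 called results named in the text, 18 kept their call under every alternative except limma's treat, 25 lost it under at least 1, and under treat against 1.4-fold only RBCS2B in both accessions kept it. Under treat the counts of called genes were 1 for Ga-0 over Col-0 and 1 for Ts-1 over Col-0, and 0 for HL at 3.5 and 25 hr, Ga-0 over Ts-1, LL at 3.5 over 1 hr, and the light response at 3.5 minus 1 hr and 25 minus 3.5 hr. With the fit limited to the groups compared, 3 genes were called for Ga-0 over Col-0, 3 for Ts-1 over Col-0 and 2 for 3.5 minus 1 hr. With p adjusted over all contrasts, 1 was called for 25 minus 1 hr. Leaving out 1 array gave 4 to 7 called genes for HL at 3.5 hr, 1 to 4 for HL at 25 hr, 3 to 9 for Ga-0 over Col-0, 3 to 7 for Ts-1 over Col-0, 4 to 7 for Ga-0 over Ts-1, 5 to 10 for LL at 3.5 over 1 hr, 0 to 4 for 3.5 minus 1 hr, 0 to 1 for 25 minus 1 hr and 1 to 4 for 25 minus 3.5 hr, and 0 in the other 8 comparisons. At 25 hr 1 gene (GGT1) was left without HL replicate 2 or LL replicate 1. Besides left-out arrays, calls ended in the fit of the compared groups for CP12-3 at 25 hr, for FBA1, RPE, GLU1 and GLDT in Ga-0 over Col-0, for GLYK and AGT1 in Ts-1 over Col-0, for RBCS3B and AGT1 in Ga-0 over Ts-1, for SBPASE in LL at 3.5 over 1 hr, for FBA1 and CP12-3 at 3.5 minus 1 hr and for RBCS2B at 25 minus 3.5 hr. Adjusting p over all contrasts ended those of CP12-3 at 25 hr, RPE and GLU1 in Ga-0 over Col-0, GLYK in Ts-1 over Col-0, RBCS3B and AGT1 in Ga-0 over Ts-1, SBPASE, RBCS1B and GAPA1 in LL at 3.5 over 1 hr, and GLU1 at 3.5 minus 1 hr, and median centring ended those of RBCS1B and GLU1 in these comparisons. Why these calls moved was not tested.

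Nothing in the labels says that a replicate number marks a shared batch, and deviations from group means of same-numbered arrays correlated by 0.01 in the median (from -0.22 to 0.27 over 165 pairs), so the numbers were not taken to pair the samples. Of the 33 arrays, 19 correlated best with arrays of their own number, which is a hint from the data and not from the design. With the replicate number as a block, 4 genes were called for HL at 3.5 hr and 4 at 25 hr, 7 for Ga-0 over Col-0, 5 for Ts-1 over Col-0, 7 for Ga-0 over Ts-1, 8 for LL at 3.5 over 1 hr (without RBCS1B), 3 for 3.5 minus 1 hr (without GLU1) and 3 for 25 minus 3.5 hr, and 0 elsewhere.

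Changes beyond 3.16-fold between a group and the group it was placed next to cannot be seen. A filter on dim loci, quantile normalization and a variance trend were not run because the levels of loci are unknown. With 3 arrays a group, changes of the size of the within-group spread are not detectable.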
